A study of Mus musculus with 6 samples.

Results

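Absorptive colonocyte transport and differentiation genes were examined in mouse colonic organoids by ChIP-seq of 2 histone marks. The set held 9 genes, Aqp8, Slc5a8, Slc26a3, Slc9a3, Car1, Car2, Car4, Krt20 and Guca2a, of 55341 gene symbols in the GENCODE annotation of GRCm38 (mm10). The genes were selected on a list of colonocyte functions that was drawn up with the promoter cover of these peak lists already known, so their values are given as a description and carry no test. The promoter of a gene was taken as 1000 bp on each side of every annotated transcript start. A peak was called present when it overlapped the promoter by at least 1 bp, and the covered percent is the share of promoter bases lying inside peaks.

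Organoids of C57BL/6 colon epithelium were kept without cytokine (wt) or with TNFα at 40 ng/ml for 3 weeks (wt+TNFα), and both conditions were otherwise wild type. Each condition had 1 H3K4me3 library, 1 H3K27me3 library and 1 input, so there was no replicate, and a difference between conditions is a difference between 2 libraries. The culture medium was conditioned by L-WRN cells, which secrete Wnt3a, R-spondin and noggin, and it also held a GSK3 inhibitor. Such medium favours crypt stem and progenitor cells over mature colonocytes, which bounds the organoids as a model of the absorptive surface.

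Colonocytes line the upper crypt and the surface of the colon, where they take up sodium, chloride, water and the short-chain fatty acids made by bacteria. Carbonic anhydrases supply the protons and bicarbonate that sodium-proton and chloride-bicarbonate exchangers move across the apical membrane, and guanylin, secreted by the same surface epithelium, tunes that transport through a receptor guanylate cyclase. H3K4me3 marks the promoters of active or poised genes. H3K27me3, laid down by Polycomb repressive complex 2, marks genes held silent, often over broad domains.

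The promoter sequences below are shown because the genes that differed between the lists ranged from CG-rich to nearly CG-free promoters. RefSeq (GRCm38.p6) gave a sequence for 7 of the 9 genes, from 250 bases before to 50 after the RefSeq start, and 6 are printed 5′ to 3′ on the gene's strand with each CG dinucleotide in capitals. Car1 and Car2 had no entry. The windows lie at chr10:88885742-88886041 (plus strand, Slc5a8), chr7:123462044-123462343 (plus, Aqp8), chr11:99438104-99438403 (minus, Krt20), chr13:74121163-74121462 (plus, Slc9a3), chr4:119637482-119637781 (plus, Guca2a) and chr11:84957504-84957803 (plus, Car4).
Slc5a8: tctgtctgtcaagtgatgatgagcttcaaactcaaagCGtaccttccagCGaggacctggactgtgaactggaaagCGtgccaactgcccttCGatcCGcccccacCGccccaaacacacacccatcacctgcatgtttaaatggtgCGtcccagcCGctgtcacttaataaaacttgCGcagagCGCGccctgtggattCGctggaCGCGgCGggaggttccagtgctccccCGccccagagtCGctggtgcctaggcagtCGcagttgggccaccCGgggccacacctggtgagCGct
Aqp8: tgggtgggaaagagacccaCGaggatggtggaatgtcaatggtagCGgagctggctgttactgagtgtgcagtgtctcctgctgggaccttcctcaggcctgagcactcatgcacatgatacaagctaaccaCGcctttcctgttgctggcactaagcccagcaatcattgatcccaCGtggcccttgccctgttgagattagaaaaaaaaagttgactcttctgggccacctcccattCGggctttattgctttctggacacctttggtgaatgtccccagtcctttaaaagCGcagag
Krt20: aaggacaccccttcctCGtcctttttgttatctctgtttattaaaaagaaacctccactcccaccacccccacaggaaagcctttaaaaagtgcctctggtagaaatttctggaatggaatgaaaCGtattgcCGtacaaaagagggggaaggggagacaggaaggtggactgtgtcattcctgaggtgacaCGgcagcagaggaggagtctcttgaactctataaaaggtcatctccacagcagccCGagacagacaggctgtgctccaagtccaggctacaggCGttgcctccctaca
Slc9a3: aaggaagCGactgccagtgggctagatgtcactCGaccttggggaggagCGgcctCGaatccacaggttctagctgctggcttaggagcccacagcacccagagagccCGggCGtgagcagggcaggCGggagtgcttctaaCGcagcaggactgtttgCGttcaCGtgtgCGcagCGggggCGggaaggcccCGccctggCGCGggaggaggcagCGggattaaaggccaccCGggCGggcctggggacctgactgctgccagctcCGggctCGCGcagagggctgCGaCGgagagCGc
Guca2a: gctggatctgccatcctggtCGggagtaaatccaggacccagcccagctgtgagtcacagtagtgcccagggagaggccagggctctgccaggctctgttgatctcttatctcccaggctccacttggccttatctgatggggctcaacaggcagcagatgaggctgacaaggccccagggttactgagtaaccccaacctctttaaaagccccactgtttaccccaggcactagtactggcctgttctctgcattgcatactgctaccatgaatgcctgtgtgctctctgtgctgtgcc
Car4: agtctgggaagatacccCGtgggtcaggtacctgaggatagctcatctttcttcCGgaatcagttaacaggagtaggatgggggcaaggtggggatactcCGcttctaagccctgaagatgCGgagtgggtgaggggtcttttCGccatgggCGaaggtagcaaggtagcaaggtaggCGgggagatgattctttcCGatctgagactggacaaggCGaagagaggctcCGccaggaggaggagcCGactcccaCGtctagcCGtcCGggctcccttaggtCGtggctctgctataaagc

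Slc9a3 held 25 CG dinucleotides in 300 bases, Slc5a8 20 and Car4 15, against 6 each in Aqp8 and Krt20 and 1 each in Guca2a and Slc26a3. The ratio of observed to expected CG was 0.733 for Slc5a8, 0.727 for Slc9a3 and 0.640 for Car4, above 73.6%, 73.1% and 66.8% of the 32851 RefSeq promoter windows. It was 0.320 for Krt20, 0.296 for Aqp8, 0.0862 for Slc26a3 and 0.0423 for Guca2a. In wt+TNFα, an H3K27me3 peak covered the whole window (300 of 300 bases) at Slc5a8, Slc9a3 and Car4, the 3 genes with the highest ratios. In wt, H3K27me3 covered 300 bases at Car4 and 0 at Slc5a8 and Slc9a3. None of the other 4 genes had an H3K27me3 base in that window in either list. The share of all RefSeq windows with H3K27me3 was not counted by CG ratio, so no link between CG and H3K27me3 is read from these genes.

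Short motifs of intestinal regulators were searched on both strands of the 7 windows. The CDX motif (TTTAT) was found in 5 of the 7, all except Slc9a3 and Guca2a. The HNF4 core motif (CAAAG) was found in Aqp8, Slc5a8 and Slc26a3, and the KLF motif (CACCC) in all but Guca2a. Over all RefSeq promoter windows, 40.0% held the first, 53.9% the second and 57.5% the third. A match is a run of letters, not a shown binding site.

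The H3K4me3 lists held 11552 peaks in wt and 11894 in wt+TNFα, and no peak below a −log10 q of 7.0 and 6.95, so a gene without a peak could hold enrichment under that level. The sequencing depth cannot be read from the peak lists. By the read totals in the study's reporting summary, H3K4me3 and input were sequenced more deeply in wt+TNFα than in wt, and H3K27me3 about equally. The part of this depth in the H3K4me3 calls was not tested. The H3K27me3 lists differed more. The wt list held 30594 peaks that spanned 101.5 Mb of autosome and the wt+TNFα list 60540 that spanned 228 Mb, and the lowest −log10 q listed was 0.302 and 0.747. On the X chromosome the H3K27me3 span was 0.597 Mb against 74.7 Mb, and the Y chromosome carried 3 H3K4me3 peaks in the wt list against 0 in the other. The cultures thus differed on the sex chromosomes, which the labels do not mention. All 9 genes are autosomal, and for them TNFα, the culture and the library cannot be told apart. The names of 3 of the 4 lists, all but wt+TNFα H3K27me3, mention a spike-in, and the part of this in the values was not tested. The wt+TNFα H3K27me3 list was also trimmed to the autosomal span of the wt list, which stayed whole. The H3K27me3 differences of Slc5a8 and Slc9a3 then kept their size, and those of Aqp8 and Car4 were 0.

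The epithelial label held in both conditions. All 10 epithelial markers, among them Epcam, Cdh1 and Cdx2, had H3K4me3 and none had H3K27me3 at the promoter. None of the 20 leukocyte, fibroblast, endothelial and neuronal markers had H3K4me3 in either list, nor did any of 6 enteroendocrine and 5 tuft cell markers. Of 6 stem and cycling markers, 3 had H3K4me3 in both, and of 6 goblet cell markers 1 did. Of 8 small-intestinal enterocyte markers, 2 had H3K4me3 in wt and 1 in wt+TNFα, and 1 and 4 had H3K27me3.

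**Figure D1:**
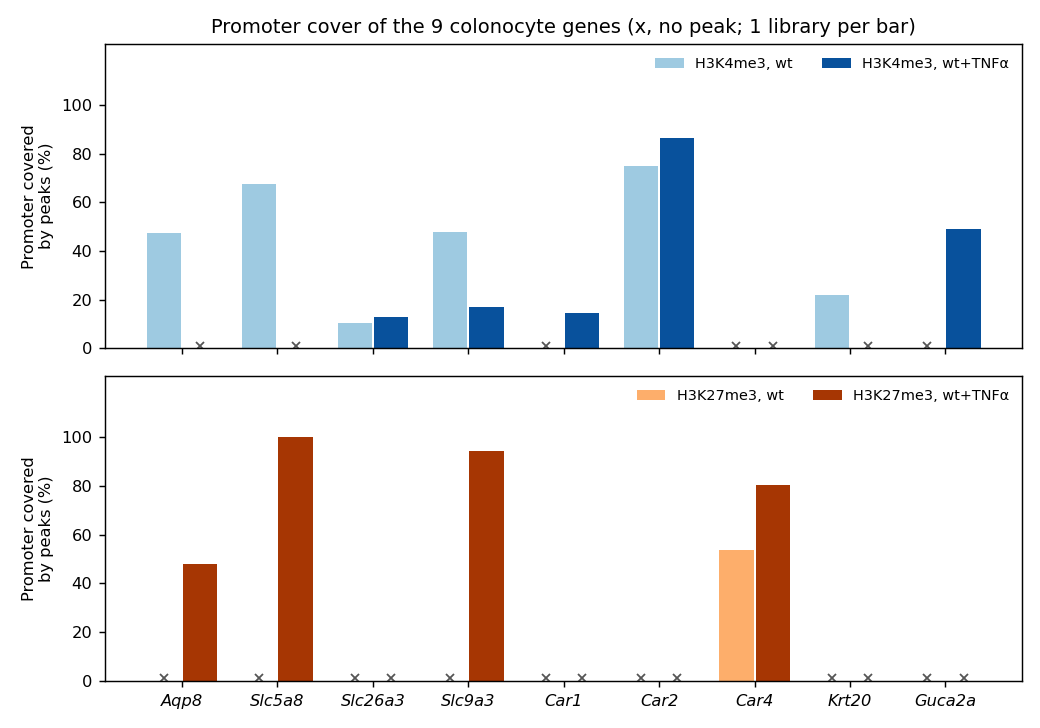
Share of promoter bases inside peaks (%), for H3K4me3 (top) and H3K27me3 (bottom), in wt and wt+TNFα, with 1 library per bar and x where no peak was present. Aqp8 and Slc5a8 show H3K4me3 in wt only and H3K27me3 in wt+TNFα only, while Guca2a and Car1 show H3K4me3 in wt+TNFα only.

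An H3K4me3 peak was present at 6 of the 9 promoters in wt and at 5 in wt+TNFα. Of the 20780 protein-coding genes of the autosomes, 51.8% had one in wt and 52.5% in wt+TNFα. The peak was present in wt only at 3 genes (Aqp8, Slc5a8 and Krt20), a pattern held by 0.741% of protein-coding genes, and in wt+TNFα only at 2 (Car1 and Guca2a), against 1.50%. Counted only over genes with a wt peak, the call was lost at 135 of 793 genes (17.0%) with a wt fold enrichment under 10, where Aqp8 and Krt20 lie, and at 18 of 2102 (0.856%) with one of 10 to 20, where Slc5a8 lies. The covered percent of H3K4me3 was higher in wt+TNFα at 4 genes and lower at 4, against 37.6% and 13.4% of protein-coding genes. An H3K27me3 peak was present at 1 gene in wt (Car4) and at 4 in wt+TNFα (Aqp8, Slc5a8, Slc9a3 and Car4), against 22.3% and 27.5%. It was present in wt+TNFα only at 3 genes and in wt only at 0, against 6.48% and 1.28%. The covered percent of H3K27me3 was higher in wt+TNFα at 4 genes and lower at 0, against 17.6% and 3.96%. With a −log10 q of at least 2 for H3K27me3, or with H3K27me3 lists of equal covered length, 2 genes had higher H3K27me3 cover (Slc5a8 and Slc9a3). Both changes together, H3K4me3 in wt only and H3K27me3 in wt+TNFα only, were found at Aqp8 and Slc5a8, 2 of the 9 genes, against 0.0962% of protein-coding genes, which is 20 genes. Under those same settings Slc5a8 alone had both. When each list was limited to peaks above its median −log10 q, H3K4me3 was left at 1 gene in each condition (Car2), none of the 9 had it in wt only, and 0 had both changes. Since the genes were picked with these values in view, the shares over all genes are given for scale and nothing is read from the gap. In chromatin of whole organoids, fewer colonocytes and less of a mark per colonocyte cannot be told apart.

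The median covered percent of H3K4me3 over the 9 genes was 22.0% in wt and 12.8% in wt+TNFα, against 8.21% and 9.76% over the protein-coding genes. The median for H3K27me3 was 0% in both conditions for both groups of genes.

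**Figure D2:**
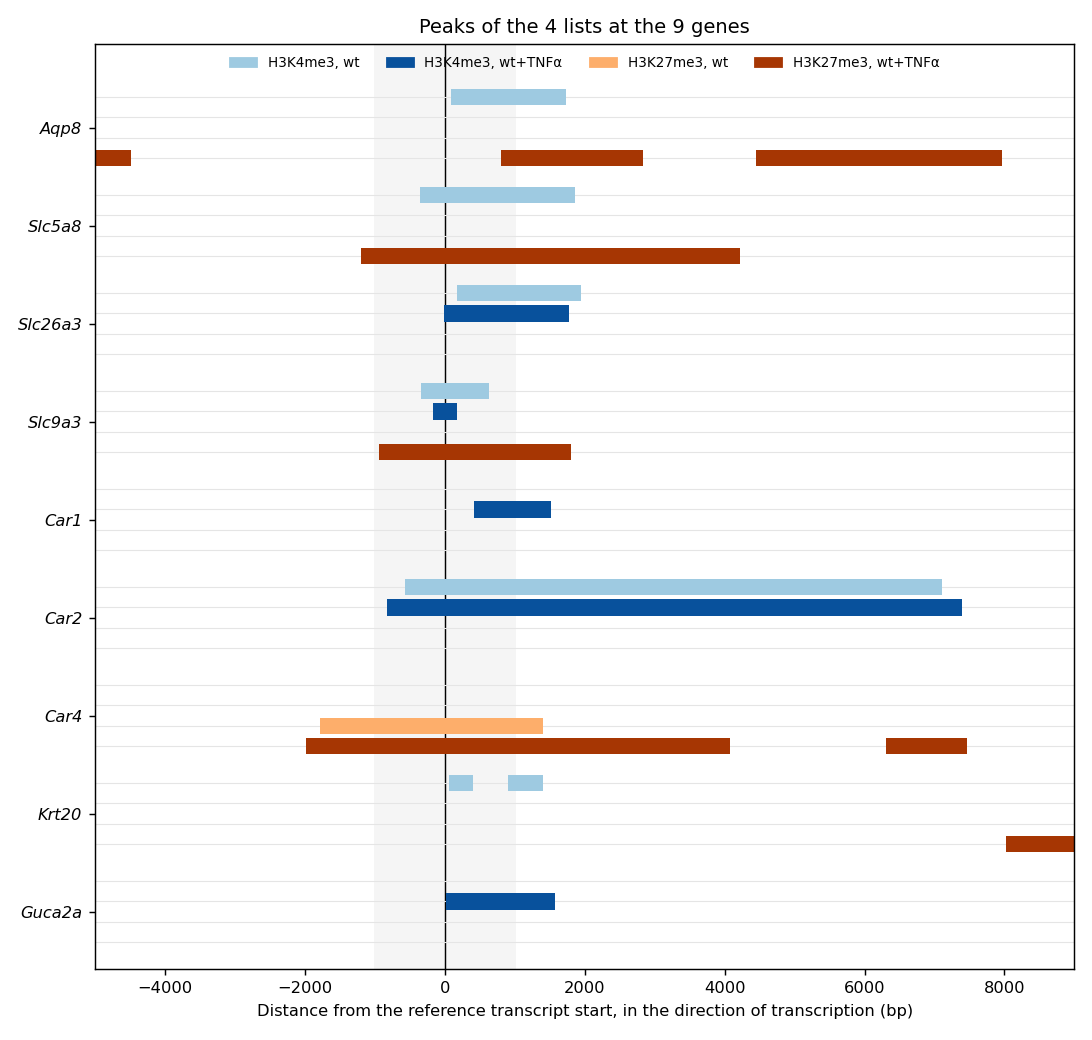
Positions of the peaks of the 4 lists around the reference start of each gene (bp, positive values downstream in the direction of transcription), with the grey band marking 1000 bp on each side and bars reaching the frame continuing beyond it. The H3K27me3 peak of Slc5a8 in wt+TNFα spans the whole wt H3K4me3 peak, while that of Aqp8 starts 805 bp downstream of the start.

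Slc5a8 encodes SMCT1, the sodium-coupled transporter of butyrate and other monocarboxylates. Its single annotated start lies on chromosome 10 at position 88885992. In wt, an H3K4me3 peak of 2206 bp reached from 349 bp upstream to 1856 bp downstream, with 351 of its bases coding and 1191 intronic, and had a fold enrichment of 19.9 over the local background and a −log10 q of 155. In wt+TNFα, no H3K4me3 peak was listed and the nearest lay 58535 bp away. The H3K4me3 cover was 67.5% without TNFα and 0% with it. The H3K27me3 cover was 0% in wt and 100% in wt+TNFα, where a 5419-bp peak, enriched 3.06-fold with a −log10 q of 7.41, contained all 2206 bases of the former H3K4me3 peak. The nearest wt H3K27me3 peak lay 99080 bp away.

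Among the 154 protein-coding autosomal genes with H3K4me3 in wt only, Slc5a8 had the second highest wt fold enrichment. Among the 1346 genes with H3K27me3 in wt+TNFα only it ranked 28, and among the 20 genes with both changes it ranked 1 by H3K4me3.

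Aqp8 encodes the water channel of the colonocyte surface. Its main start lies on chromosome 7 at position 123462291. A wt H3K4me3 peak of 1639 bp began 92 bp downstream of that start, with its summit 294 bp downstream and 1318 of its bases in introns, and had a fold enrichment of 5.96 and a −log10 q of 18.6. The wt+TNFα list had no H3K4me3 peak within 83380 bp of the start. The H3K4me3 cover was 47.4% without and 0% with TNFα, and the H3K27me3 cover 0% and 47.8%. The wt+TNFα H3K27me3 peak measured 2033 bp, lay in the gene body and shared 926 bp with the wt H3K4me3 peak. Of this peak, 1656 bp fell in the promoters, mostly through the start of a non-coding transcript 1460 bp downstream, whose own promoter was covered to 82.8%. At the main start the H3K27me3 cover was 9.80%.

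The Aqp8 peaks were weaker than those of Slc5a8. The wt H3K4me3 peak exceeded 3.91% of its list in fold enrichment and ranked 112 of the 154 genes with H3K4me3 in wt only. The H3K27me3 peak had a fold enrichment of 2.001, rank 537 of 1346, and a −log10 q of 1.68. Aqp8 was therefore without an H3K27me3 call when a −log10 q of at least 2 was required. The same held when the wt+TNFα H3K27me3 list was trimmed to the autosomal span of the wt list. Around the gene, 6 H3K27me3 peaks were listed in wt+TNFα within 30 kb of the gene body, 1 of them 16867 bp long, against 2 peaks of 456 and 698 bp in wt.

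Krt20 encodes the keratin of differentiated surface epithelium. A pair of short wt H3K4me3 peaks lay downstream of its start on chromosome 11 at position 99438150, 1 of 339 bp inside the first coding exon and 1 of 504 bp in an intron, enriched 6.21-fold and 5.61-fold. The covered percent of H3K4me3 was 22.0% in wt and 0% in wt+TNFα, where the nearest peak lay 51168 bp away. With the 1000 bp upstream of the start alone, no H3K4me3 was counted in either list. Unlike Slc5a8 and Aqp8, its promoter had no H3K27me3 in either list. The 3′ end of the gene was reached by an H3K27me3 peak of 13036 bp in wt+TNFα, which covered 17.7% of the gene body, with its nearest edge 8021 bp from the start. The wt list had 4 H3K27me3 peaks beyond that end, the nearest 11195 bp from the start.

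Slc9a3 encodes NHE3, the main apical sodium-proton exchanger. It kept an H3K4me3 peak in both conditions, 983 bp long with a fold enrichment of 7.82 in wt and 349 bp long with a fold enrichment of 5.63 in wt+TNFα. Both peaks spanned the start on chromosome 13 at position 74121515. The covered percent of H3K4me3 was 47.7% in wt and 17.0% in wt+TNFα. The H3K27me3 cover was 0% in wt and 94.6% in wt+TNFα, where a peak of 2756 bp had a fold enrichment of 2.52 and a −log10 q of 3.89. The whole 349-bp H3K4me3 peak of wt+TNFα lay inside that H3K27me3 peak. H3K4me3 in both conditions with H3K27me3 in wt+TNFα only was the pattern of 325 protein-coding genes (1.56%). By the fold enrichment of the H3K27me3 peak, Slc9a3 ranked 78 of the 1346 genes with H3K27me3 in wt+TNFα only.

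Slc26a3 encodes DRA, the chloride-bicarbonate exchanger of the apical membrane. Its H3K4me3 peak was 1771 bp wide in wt and 1785 bp in wt+TNFα, enriched 8.01-fold and 9.40-fold. No H3K27me3 was listed at its promoters in either condition, and the nearest peaks lay 67676 and 64381 bp from the reference start. Its covered percent of H3K4me3 was 10.4% in wt and 12.8% in wt+TNFα because 3 of its 6 starts lie kilobases away and carried no peak. At the reference start on chromosome 12, position 31438219, the cover was 41.2% and 50.6%. In wt the peak began 177 bp downstream of the start, and in wt+TNFα it reached 11 bp upstream of it.

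Car2 encodes the abundant cytosolic carbonic anhydrase. Its H3K4me3 peak was 7674 bp in wt and 8228 bp in wt+TNFα, wider than 99.9% of the peaks of either list, and ran from upstream of the start across the first introns. The fold enrichments were 39.8 and 37.6, and the covered percents 75.03% and 86.2%. No H3K27me3 was listed at its promoter. Of the 9 genes, Car2 alone had H3K4me3 peaks that exceeded the median fold enrichment of their lists, 24.6 in wt and 26.97 in wt+TNFα.

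Car1 encodes the carbonic anhydrase shared by colonocytes and red cells, which use separate promoters. Its downstream start, on chromosome 3 at position 14778459, had no H3K4me3 peak within 107405 bp in wt. In wt+TNFα a 1094-bp peak, enriched 7.87-fold with a −log10 q of 23.9, lay 418 to 1511 bp downstream. The covered percent at that start was 0% in wt and 29.1% in wt+TNFα, and over all 3 starts 0% and 14.6%. The other 2 starts, 29906 and 29909 bp upstream, carried neither mark in either list. The difference was 0 with 1000 bp upstream alone and with 1 start per gene.

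Car4 encodes the membrane-anchored carbonic anhydrase of the apical surface. Alone among the 9 genes it had H3K27me3 in both conditions, and it had no H3K4me3 peak within 41179 bp in either. The H3K27me3 peak over its main start on chromosome 11, position 84957788, was 3193 bp wide in wt (3.46-fold, −log10 q of 7.54) and 6051 bp in wt+TNFα (3.94-fold, −log10 q of 15.1). The covered percent was 53.7% in wt and 80.5% in wt+TNFα. Its 5 clustered starts were covered to 100% in both lists, so the difference came from the start 6559 bp downstream, where wt+TNFα had a further 1158-bp peak enriched 1.87-fold. The difference was 0 under 4 of the 11 alternatives, with 1 start per gene, with the reference start alone, with a −log10 q of at least 2 and with equal covered length. H3K27me3 in both conditions without H3K4me3 was the pattern of 15.5% of protein-coding genes.

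Guca2a encodes guanylin, the peptide ligand of the receptor guanylate cyclase. No H3K4me3 was listed within 95537 bp of its start on chromosome 4, position 119637704, in wt. In wt+TNFα a 1559-bp peak, enriched 5.20-fold with a −log10 q of 17.0, began 19 bp downstream and covered most of the gene (88.2%). The covered percent of the promoter was 0% in wt and 49.1% in wt+TNFα, and 0% in both with 1000 bp upstream alone. This was among the weaker peaks of its kind, with rank 275 of the 311 genes with H3K4me3 in wt+TNFα only. The adjacent Guca2b, which encodes the related peptide uroguanylin, also had H3K4me3 in wt+TNFα only, with 44.9% cover by a 1153-bp peak enriched 7.70-fold. Neither gene had H3K27me3 at its promoter.

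**Figure D3:**
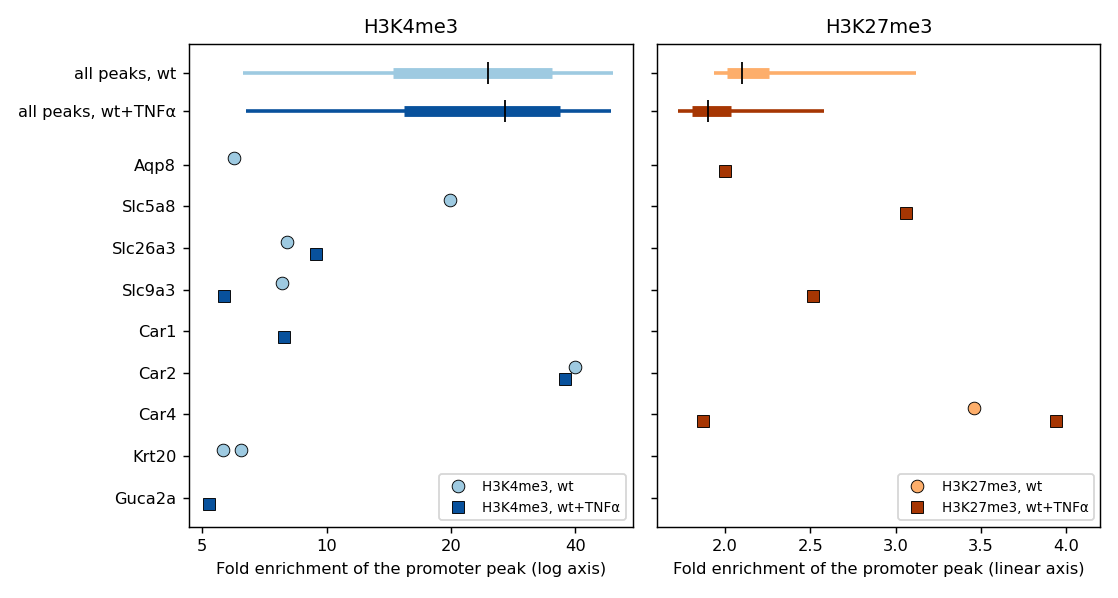
Fold enrichment of each promoter peak over the local background, for H3K4me3 (left, log axis) and H3K27me3 (right, linear axis), below the spread of all peaks of the list (thick bar, quartiles; thin bar, 5th to 95th percentile; tick, median). Car2 alone lies above the H3K4me3 medians of 24.6 and 26.97, and Aqp8, Slc5a8, Slc9a3 and the main peak of Car4 lie above the wt+TNFα H3K27me3 median of 1.90.

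**Figure D4:**
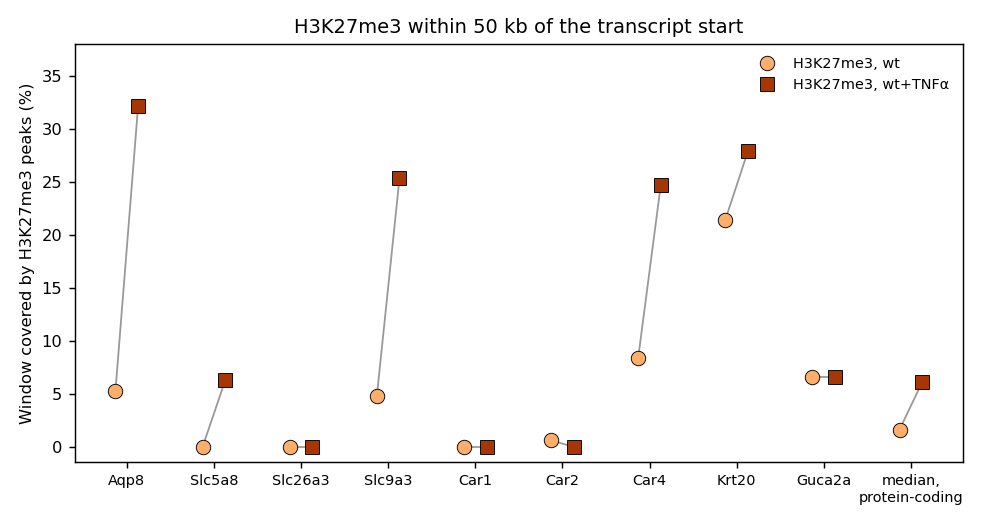
Share (%) of the 100 kb around each reference start that H3K27me3 peaks covered in wt and wt+TNFα, with the median over protein-coding autosomal genes at the right. Aqp8, Slc9a3 and Car4 show the widest gaps, and Slc26a3 and Car1 had no H3K27me3 in the window in either list.

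H3K27me3 was then measured over the 100 kb around each start, since the mark spreads in domains. The window of Aqp8 was covered to 5.28% in wt and 32.1% in wt+TNFα, that of Slc9a3 to 4.76% and 25.3%, and that of Car4 to 8.38% and 24.7%. The median over protein-coding genes was 1.63% and 6.11%. Slc5a8 had 0% and 6.27%, so its H3K27me3 was a peak at the promoter in a window that was otherwise nearly free of the mark. Krt20 had 21.4% and 27.9%, and Guca2a 6.63% and 6.56%. The windows of Slc26a3 and Car1 held none, and that of Car2 held 0.616% in wt and none in wt+TNFα.

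The nearest protein-coding genes mostly kept their state. On both sides of Slc9a3, Cep72 and Exoc3 carried H3K4me3 in wt and wt+TNFα, enriched 18.5-fold and 24.3-fold at Cep72 and 15.5-fold and 28.8-fold at Exoc3, and no H3K27me3. Beside Slc5a8, Utp20 had H3K4me3 in both (29.7 and 31.6), and Ano4 had H3K27me3 in both with an equal cover of 44.3%. Beside Aqp8, Lcmt1 had H3K4me3 in both, while the promoter of Zkscan2 was covered by H3K27me3 to 42.8% in wt and 100% in wt+TNFα. Car3, which lies between Car1 and Car2, had H3K27me3 in wt only. Krt12, beside Krt20, was covered by H3K27me3 to 100% in both. The neighbours of Slc26a3 (Dld and Cbll1) and of Car4 (Znhit3 and Usp32) had H3K4me3 in both and no H3K27me3.

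The transport families and differentiation genes around these 9 were taken from 9 lists, which held 116 further genes, all found in the annotation. H3K4me3 was present at 74 of them in wt and 77 in wt+TNFα, in wt+TNFα only at 5 (4.31%) and in wt only at 2 (1.72%). H3K27me3 was present at 27 in wt and 36 in wt+TNFα, in wt+TNFα only at 11 (9.48%) and in wt only at 2 (1.72%). The H3K4me3 cover was higher in wt+TNFα at 40 genes (34.5%) and lower at 29 of the 116, against 37.6% and 13.4% of protein-coding autosomal genes. The H3K27me3 cover was higher at 26 (22.4%) and lower at 3 (2.59%), against 17.6% and 3.96%. For the presence of a peak, the shares over those genes were 1.50%, 0.741%, 6.48% and 1.28%.

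Among the other aquaporins, H3K27me3 in wt+TNFα only was found at Aqp9 (65.0% cover), Aqp12 (57.6%) and Aqp1 (42.6%), none of which had H3K4me3 in either list. Only 3 of the 11 aquaporins had H3K4me3 in wt, and of these Aqp8 alone lost the call. Among the carbonic anhydrases, Car5a (44.2%), Car6 (34.2%) and Car5b (16.0%, on the X chromosome) had H3K27me3 in wt+TNFα only. Car8 had H3K4me3 in wt+TNFα only, with 20.6% cover on a promoter covered to 100% by H3K27me3 in both, and Car3 had H3K27me3 in wt only, at 15.3%. Among the Slc9 exchangers, Slc9a2 had H3K27me3 in wt+TNFα only (30.5%) and kept H3K4me3, and Slc9a4 had H3K4me3 in wt+TNFα only (19.7%). Among the Slc26 exchangers, Slc26a7 had H3K27me3 in wt+TNFα only (52.4%), and Slc26a8 was touched by the edge of a neighbouring H3K4me3 peak (0.574%). Of the 7 butyrate and monocarboxylate genes other than Slc5a8, none changed presence of either mark. In the list of sodium, chloride and potassium transport, Kcne3 alone changed presence, with H3K27me3 over 3.16% of its promoter in wt+TNFα.

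In the guanylin axis, Prkg2, which encodes the kinase that acts downstream of the receptor, had H3K27me3 in wt only (36.0%) and a higher H3K4me3 cover in wt+TNFα (8.92% and 20.4%). Gucy2c, the receptor itself, had H3K4me3 in both, at 72.9% and 58.6%. Of the 29 brush border and differentiation genes other than Krt20, 23 had H3K4me3 in each list. Dpep1, a dipeptidase of the brush border, had H3K4me3 in wt only (13.7%) and H3K27me3 in wt+TNFα only (44.9%), the pattern of Slc5a8 and Aqp8, and Ceacam20 had H3K4me3 in wt+TNFα only (15.1%). All 16 regulators of colonocyte differentiation had H3K4me3 in wt and 15 in wt+TNFα. The exception was Gata4, with 12.5% in wt and 0% in wt+TNFα on a promoter covered by H3K27me3 to 69.7% and 100%. Cdx2 and Hnf4a had H3K4me3 over 65.6% and 66.8% of the promoter in wt and 58.7% and 70.3% in wt+TNFα.

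**Figure D5:**
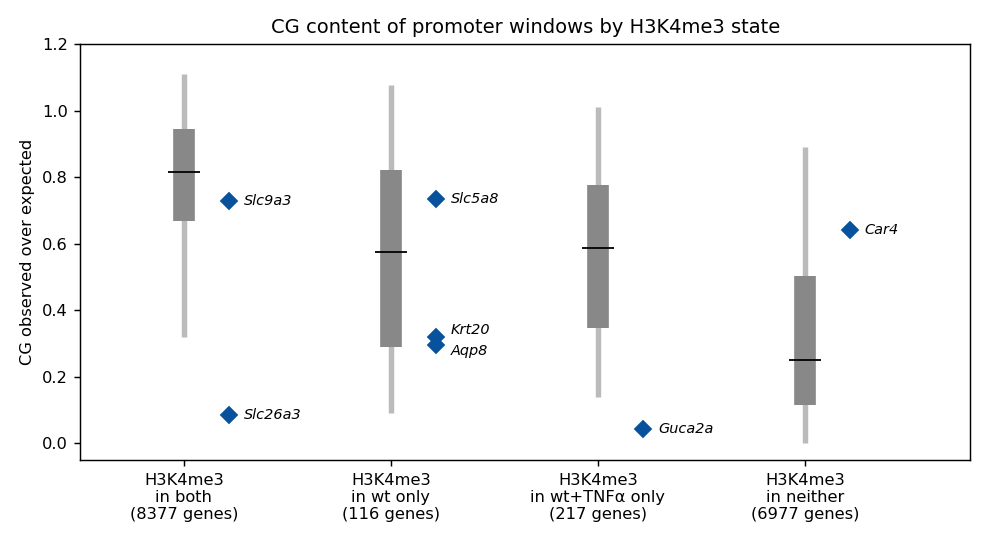
Ratio of observed to expected CG in the RefSeq promoter windows of protein-coding autosomal genes, by the H3K4me3 state of the gene (thick bar, quartiles; thin bar, 5th to 95th percentile; line, median), with the 7 colonocyte genes as diamonds. Slc26a3 and Guca2a lie below the 5th percentile of their state, and Car4 lies above the upper quartile of the genes with no H3K4me3.

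The CG ratio was set against the H3K4me3 state of all protein-coding autosomal genes with a RefSeq window, taking the highest ratio where a gene had several. The median ratio was 0.816 over 8377 genes with H3K4me3 in both conditions, 0.574 over 116 genes with it in wt only, 0.587 over 217 genes with it in wt+TNFα only and 0.250 over 6977 genes with it in neither. Slc5a8, at 0.733, lay above the median of the genes with H3K4me3 in wt only, and Aqp8 and Krt20, at 0.296 and 0.320, near their lower quartile of 0.289. Slc26a3 (0.0862) and Guca2a (0.0423) had almost no CG, below the 5th percentiles of their states (0.320 and 0.139). Their H3K4me3 peaks lay mostly outside the window measured, with 0 of its 300 bases covered in wt and 61 in wt+TNFα at Slc26a3, and 0 and 59 at Guca2a. At Aqp8 and Krt20 no base of the window was covered by either mark. Car4, at 0.640, lay above the upper quartile (0.504) of the genes without H3K4me3.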

How the data were processed

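Reads were trimmed (fastp) and mapped to GRCm38 (mm10) by the authors. Duplicate reads and blacklisted regions were taken out, and MACS2 then called narrow peaks for H3K4me3 and broad peaks for H3K27me3, each with the input of its own condition as control. The submitters' processing notes name BWA 2.2, SAMtools 1.11 and MACS2 2.1.0. The 4 deposited peak lists, 1 library each, give positions, a fold enrichment (a ratio to the local background), the −log10 of the p-value and q-value, a MACS2 score and, for H3K4me3, the summit's offset. The fold enrichments and −log10 q were computed per library by the authors, so they only order peaks inside 1 list here. The inputs and the score column were not used here.

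From these lists, promoter presence and cover were computed against GENCODE vM21 (141767 transcripts), with peaks merged within a list and coordinates counted from 1. The reference start of a gene is that of the transcript GENCODE numbers first, chosen after the annotation was viewed. Groups follow the condition and mark in the sample labels. With 1 library per condition and mark, no test, error or p-value could be had, and the precision of a peak call is unknown. The measure of promoter cover was tested on simulated peaks planted at genes with 1 start, and the planted bases were recovered. Genes with several starts and the other steps were not tested in this way. Calculations used Python 3.11.15 and numpy 2.4.6, and plots matplotlib 3.10.9.

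The 9 genes and all lists were chosen with earlier results of these data known. Besides the 9 genes, the text names listed genes whose presence of a peak differed, at most 3 per list and direction by change of cover, nearest neighbours and marker genes. A gene that this rule would name is not reported here. Gucy2c, Cdx2, Hnf4a, the markers named and the other genes named outside that rule were chosen after their values were seen. The planned background was all 55341 symbols. Protein-coding autosomal genes were put in its place after the X chromosome values were seen, and the shares over all symbols are given in the closing section. Alternatives were 9 settings of promoter, start, overlap and peak filter, and 2 added after seeing the data, equal covered length of H3K27me3 and that reference start alone.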

Additional observations from a re-analysis of the deposited data

How the results depend on the processing

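Of the 11 alternatives, none reversed the direction of a covered percent at any of the 9 genes, but many could not. At Aqp8, Slc5a8, Krt20, Car1 and Guca2a, 1 list had no H3K4me3 peak nearer than 51168 bp. There the H3K4me3 difference could fall to 0 but not reverse. The overlap setting leaves the covered percent as it was, and the H3K27me3 filters leave H3K4me3 as it was. H3K27me3 at Slc5a8 and Slc9a3 was higher in wt+TNFα under all 11. The wt list had no H3K27me3 peak nearer than 41144 bp to either start, so this difference too could only fall to 0. The loss of the H3K4me3 call at Aqp8 and Slc5a8 was seen under every alternative but the filter below. Several of these could not undo it. Slc5a8 has 1 annotated start, so the settings of start leave it as it was. Equal numbers of peaks cut only the longer wt+TNFα list and leave the wt calls whole. When the weaker peaks of each list were dropped at its median −log10 q, H3K4me3 was left at 1 gene in each condition (Car2), with cover higher at 1 and lower at 0, so the H3K4me3 differences of the other genes rest on peaks in the weaker part of their lists. With 1000 bp upstream alone, 4 genes had H3K4me3 in wt and 3 in wt+TNFα, and 2 had higher cover. The differences at Krt20, Guca2a and Car1 were then 0, and Slc26a3 had H3K4me3 in wt+TNFα only. With 1 start per gene, the gene's 5′ end, 5 genes had H3K4me3 in wt and 3 in wt+TNFα, and 2 had higher cover, without Slc26a3 and Car1, whose peaks lie at a downstream start. Requiring a −log10 q of at least 2 for H3K27me3 left 2 genes with higher H3K27me3 cover, Slc5a8 and Slc9a3, without Aqp8 and Car4. Equal covered length on the autosomes, chosen after seeing the data, left the same 2. It cut the wt+TNFα list to the span of the wt list, which stayed whole.

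Over all 55341 symbols, the shares were 24.3% and 24.7% for H3K4me3 in wt and wt+TNFα, 0.407% and 0.851% for wt only and wt+TNFα only, 14.2% and 23.2% for H3K27me3, 1.04% and 9.96% for its presence in wt only and wt+TNFα only, and 0.0578% for both changes together. A gene without a peak may hold signal under the threshold of its list. No paired analysis was possible because each condition had 1 library per mark.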

Other observations

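Some genes of the wider lists differed in cover while a peak was present in both conditions. They are given as values and were chosen after these were seen. Scnn1a, the alpha subunit of the epithelial sodium channel that takes up sodium in the distal colon, had a 538-bp H3K4me3 peak enriched 5.17-fold in wt and a 2855-bp peak enriched 9.99-fold in wt+TNFα, and its covered percent was 18.8% and 52.6%. Scnn1b, the beta subunit of the same channel, had no H3K4me3 in either list, and its promoter was covered by H3K27me3 to 68.5% in wt and 100% in wt+TNFα. Car12, a membrane carbonic anhydrase, had H3K27me3 over 6.20% of its promoter in wt and 100% in wt+TNFα, where the peak was 8854 bp long. Emp1, a membrane protein of differentiating epithelia, had H3K4me3 over 9.06% in wt and 24.7% in wt+TNFα.

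The 20 genes with H3K4me3 in wt only and H3K27me3 in wt+TNFα only included the imprinted, overlapping Snurf and Snrpn, with 1 shared wt H3K4me3 peak of 13.2-fold enrichment, and Klb, which encodes the co-receptor beta-Klotho, with 10.94. The reverse exchange, H3K27me3 in wt only and H3K4me3 in wt+TNFα only, was found at 25 protein-coding autosomal genes.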
